A study of Mus musculus with 4 samples.

Results

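The miR-26 family of the mouse comprises the mature miRNAs mmu-miR-26a-5p and mmu-miR-26b-5p, here taken by name from a table of small RNA sequencing reads. They are 2 of 1979 mature miRNAs listed, and both are among the 251 that reached a mean of 10 reads per 1000000 counts (RPM) and are called expressed below. The libraries were made from unstimulated bone marrow-derived macrophages (BMDMs), which M-CSF had driven to differentiate from bone marrow cells, of mice of a mixed 129/B6 background. Cells of mice aged 6 to 7 months were plated at 85000 cells per cm2 and differentiated over 8 to 9 days in M-CSF at 10 ng/ml, after which fresh medium free of LPS was given and RNA was taken 16 h later. There were 2 wild-type libraries (WT A and WT B), 1 library from mice with the mir-146a gene deleted in the germline (KO), and 1 from mice homozygous for the 3′F allele, in which the 3′ part of miR-146a outside the seed is swapped with the matching stretch of the opposite hairpin strand. The mutant mice descend from separately targeted embryonic stem cell lines, 1 for each allele. Bone marrow of 3 mice was used per genotype, and pooling of mice within a library is not stated.

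miR-26 miRNAs are broadly expressed in mammalian tissues. Their hairpins lie in introns of the Ctdsp genes, which encode small phosphatases acting on the C-terminal domain of RNA polymerase II, and the miRNA and the host mRNA derive from 1 primary transcript. The family pairs with its targets through a shared seed, and Ezh2, a histone methyltransferase, and Il6, an inflammatory cytokine of macrophages, are among the mRNAs it has been reported to repress.

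Library totals ranged from 11410940 to 19087640 counts. miR-146a-5p, the check of the genotypes, measured 6253 RPM (WT A), 5485 RPM (WT B), 13.4 RPM (KO) and 6.64 RPM (3′F), low in both mutants. The 3′F mice are not without miR-146a. By quantitative PCR the study found its swapped form at levels similar to wild type in most tissues and cells examined. The low value thus sets both mutants apart from WT but does not tell KO from 3′F. miR-223-3p, a miRNA of myeloid cells, was at 1466 to 1636 RPM in the 4 libraries. miR-142a-3p, a miRNA of blood cells, was at 1721 RPM (WT A), 1121 RPM (WT B), 1115 RPM (KO) and 1071 RPM (3′F), so that WT A stood above the other libraries. miR-21a-5p took between 33.4% and 37.9% of all counts of a library, so that RPM values are shares of a total that 1 miRNA dominates. The efficiency of ligation differs between small RNA sequences, so levels of different miRNAs are compared only as levels of reads.

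The mature sequences are shown first, because the 2 members share their seed and most of the remaining bases (RefSeq, GRCm38.p6, written 5′ to 3′). Capitals mark the seed, bases 2 to 8.
mmu-miR-26a-5p: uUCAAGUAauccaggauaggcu
mmu-miR-26b-5p: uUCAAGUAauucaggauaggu
mmu-miR-26a-5p has 22 nt and mmu-miR-26b-5p 21 nt, and 19 of the 21 positions that both have are equal. Counted from 1 at the 5′ end, miR-26b-5p carries C11U and C21U relative to miR-26a-5p. Of 1679 mature names of the table found in the RefSeq set, no other carries the seed UCAAGUA, so the 2 members make up the seed family there.

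The family comes from 3 hairpins, all on the plus strand of GRCm38 and each inside an intron of a Ctdsp gene (GENCODE vM21). Mir26a-1 (ENSMUSG00000065513.1, chr9:119031796-119031885) lies in intron 5 of 7 of Ctdspl. Mir26a-2 (ENSMUSG00000065430.1, chr10:126995530-126995613) lies in intron 5 of 7 of Ctdsp2. Mir26b (ENSMUSG00000065468.1, chr1:74394310-74394394) lies in intron 4 of 6 of Ctdsp1, the shortest of these 3 introns at 564 bp, against 3283 bp in Ctdspl and 1946 bp in Ctdsp2. No annotated coding transcript of a host has an exon over its hairpin.

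The mature strand is printed again with 4 bases of its hairpin on each side, because these flanks decide whether a read can be assigned to a hairpin. The windows are chr9:119031807-119031836 for Mir26a-1, chr10:126995539-126995568 for Mir26a-2 and chr1:74394320-74394348 for Mir26b (GRCm38.p6, plus strand). Capitals mark the mature strand.
Mir26a-1: cucgUUCAAGUAAUCCAGGAUAGGCUgugc
Mir26a-2: uggaUUCAAGUAAUCCAGGAUAGGCUgugu
Mir26b: ccagUUCAAGUAAUUCAGGAUAGGUugug
The mature strands of Mir26a-1 and Mir26a-2 are identical. The base directly before them differs, and the 3 bases directly after them are the same in both, so a read of the mature strand fits both hairpins.

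The deposited table has a line for each mature miRNA and precursor, and the miR-26a-5p reads were shared out between its 2 lines. In WT A the line of mir-26a-1 held 91446.67 counts and that of mir-26a-2 held 91468.67. The mir-26a-2 line was the higher by 22 counts for WT A, 10 for WT B, 21 for KO and 23 for 3′F, at most 0.0127% of the sum of both lines. The fractions show how reads were divided. No count of the 3 family lines was a whole number, whereas their sum was whole in every library within 0.03 counts: 223312 for WT A, 166661 for WT B, 311549 for KO and 218177 for 3′F. The fractions of single lines cannot come from an even split over 2 lines alone, so some reads were divided between the miR-26a and miR-26b lines as well, and how many cannot be read from the table. Across the table, 34.0% of the nonzero values of miRNAs with 2 lines lay midway between whole numbers, against 5.92% of those with 1 line. The lines of miR-26a-5p were thus read as equal parts of its reads, and its level as the sum of both.

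With both lines summed, the level of miR-26a-5p was 10713 RPM for WT A, 11982 RPM for WT B, 13829 RPM for KO and 11220.3 RPM for 3′F. Its 95% Wilson intervals, which cover counting error only, were 10665 to 10762 RPM, 11919 to 12045 RPM, 13777 to 13882 RPM and 11169 to 11272 RPM in that order. The level of miR-26b-5p was 2366 RPM for WT A, 2623 RPM for WT B, 2493 RPM for KO and 2252 RPM for 3′F. KO was thus the highest library for miR-26a-5p and lay between the WT libraries for miR-26b-5p, while 3′F lay between the WT libraries for miR-26a-5p and was the lowest for miR-26b-5p. The WT mean was 11348 ± 897 RPM for miR-26a-5p and 2495 ± 182 RPM for miR-26b-5p (SD, n = 2 cultures).

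**Figure D1:**
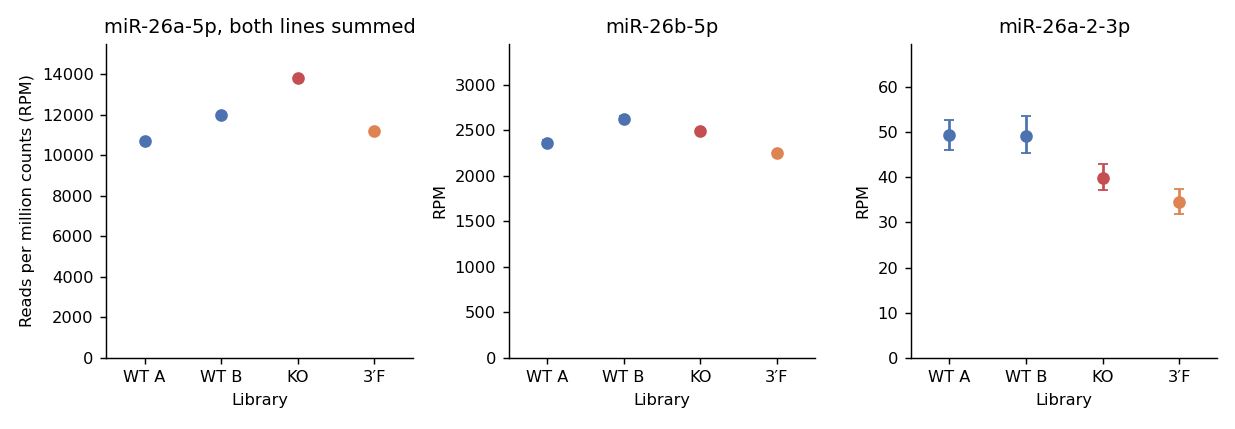
Level of miR-26a-5p with both lines summed, of miR-26b-5p and of miR-26a-2-3p in the 4 libraries, in RPM on axes that start at 0. Points are single libraries and bars are 95% Wilson intervals, which are smaller than the points for the 5p strands. miR-26a-5p is highest in KO, miR-26b-5p varies within 2252 to 2623 RPM, and miR-26a-2-3p is lower in KO and 3′F than in both WT libraries.

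By its summed level miR-26a-5p was the 13th, 12th, 12th and 13th most abundant miRNA of WT A, WT B, KO and 3′F, and miR-26b-5p was the 36th in each of them. In the order of WT means, miR-7a-5p (16497 ± 658 RPM) stood directly above miR-26a-5p and miR-99b-5p (10163 ± 1384 RPM) directly below it. miR-99b-5p was higher than miR-26a-5p in WT A and lower in WT B, whereas miR-7a-5p was higher in both WT libraries and its WT values did not overlap those of miR-26a-5p. In KO, at 12092.5 RPM, miR-7a-5p was lower than miR-26a-5p. Around miR-26b-5p stood miR-221-5p (2599 ± 240 RPM) and let-7e-5p (1918 ± 38.7 RPM). miR-221-5p was higher than miR-26b-5p within each WT library (2429 and 2769 RPM), although the WT ranges overlapped, and let-7e-5p was lower in both with no overlap. On 1 line, the neighbors of miR-26a-5p were miR-191-5p (5803 ± 485 RPM) and miR-27a-3p (5597 ± 70.7 RPM), whose WT ranges both overlapped its own. Within a library miR-191-5p was higher than miR-26a-5p in both WT libraries (5460 and 6146 RPM), and miR-27a-3p was higher in WT A and lower in WT B.

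Both members together took 1.31% of all counts for WT A, 1.46% for WT B, 1.63% for KO and 1.35% for 3′F. The widest Wilson interval of these shares was 1.45% to 1.47%, that of WT B. The family share was highest in KO, and 3′F lay between the WT libraries. Most of the family was miR-26a-5p, which made up 81.9% (WT A), 82.0% (WT B), 84.7% (KO) and 83.3% (3′F) of its counts.

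The ratio of the members within a library does not depend on how libraries are scaled. There were 4.53 counts of miR-26a-5p for each count of miR-26b-5p in WT A (interval 4.48 to 4.58) and 4.57 in WT B (interval 4.51 to 4.62). The ratio was 5.55 in KO (interval 5.49 to 5.60) and 4.98 in 3′F (interval 4.93 to 5.04). Both mutant libraries were above both WT libraries, and KO was above 3′F. On the log2 scale, KO exceeded the WT mean by 0.29 and 3′F exceeded it by 0.13, against a difference of 0.01 between WT B and WT A. The spread between cultures rests on 1 pair of libraries, each mutant has a single library, and the 2 comparisons share the WT libraries. The counts of both members hold reads divided between them, whose number is not known, and the ratio is uncertain to that extent.

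**Figure D2:**
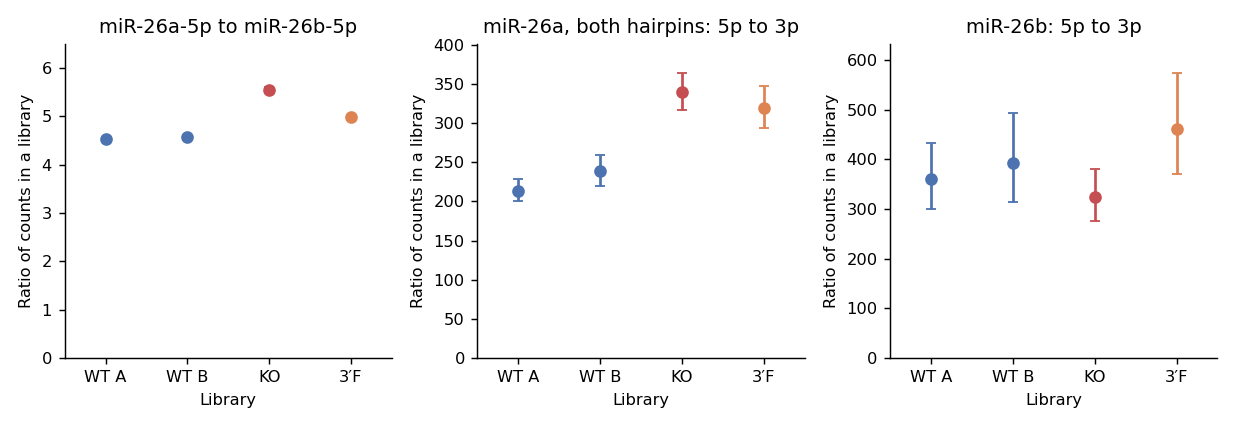
Ratios of counts within each library, on axes that start at 0: miR-26a-5p to miR-26b-5p, the 5p to the 3p strand over both miR-26a hairpins, and the 5p to the 3p strand of miR-26b. Points are single libraries and bars are 95% Wilson intervals converted to ratios. The ratios of the left and middle panels are higher in KO (5.55 and 340) and 3′F (4.98 and 320) than in both WT libraries, and the intervals of the right panel overlap between each mutant and WT.

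The study used these libraries to see whether the swapped miR-146a is correctly processed in macrophages, and also compared miR-146b between genotypes. It proposes that miR-146b is higher in KO, and saw no such rise in 3′F. Other miRNAs can be compared in the same libraries. For ratios to WT, 1 line was used for each mature miRNA, that with the highest summed count, and log2(RPM + 1) of a mutant library was set against the average of that value over the WT pair. On this 1 line the level of miR-26a-5p was 5357 RPM (WT A), 5991 RPM (WT B), 6915 RPM (KO) and 5611 RPM (3′F). A miRNA counted as called when it exceeded each WT library 2-fold or more, or fell short of each by as much. Each mutant is a single library, which leaves its difference from WT without a replicate check.

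In KO, miR-26a-5p had a log2 ratio of 0.29 to WT. It was 1.29-fold WT A and 1.15-fold WT B, and the difference of WT B from WT A was 0.16 on the same scale. miR-26b-5p had a log2 ratio of 0.00 in KO, with 1.05-fold WT A and 0.95-fold WT B. Neither member was called, while 9 of the 251 expressed miRNAs were, or 3.59%, among them miR-146a-5p itself. Lying above both WT libraries, as miR-26a-5p did, was common in KO: 37.8% of the expressed miRNAs were higher than both WT libraries and 39.4% were lower than both. By its rise in KO miR-26a-5p stood at rank 49 of 251 and miR-26b-5p at rank 132. WT A and WT B differed by as much as miR-26a-5p moved in KO, or more, for 65 of the 251 miRNAs. edgeR's quasi-likelihood test, adjusted after Benjamini-Hochberg over all 251 miRNAs, gave an adjusted p = 0.405 for miR-26a-5p (log2 fold change 0.27) and an adjusted p = 0.975 for miR-26b-5p (log2 fold change -0.01). This fit takes the spread from the WT pair alone, with 1 residual degree of freedom for each miRNA, and shares information on it across the 251 miRNAs. It assumes that the lone mutant libraries vary like the WT pair. It called 12.0% of the expressed miRNAs in KO.

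In 3′F, miR-26a-5p had a log2 ratio of -0.01 to WT, with 1.05-fold WT A and 0.94-fold WT B. miR-26b-5p had a log2 ratio of -0.15, with 0.95-fold WT A and 0.86-fold WT B. Neither member was called, while 2 of the 251 expressed miRNAs were, or 0.797%, among them miR-146a-5p itself. Like miR-26b-5p, 44.2% of the expressed miRNAs fell below both WT values in 3′F, and 22.7% were higher there than both WT values. The median log2 ratio of all expressed miRNAs was -0.08 in 3′F and 0.01 in KO. edgeR's adjusted p was 0.985 for both members in 3′F, with a log2 fold change of 0.06 for miR-26a-5p and -0.07 for miR-26b-5p, and 1.20% of the expressed miRNAs were called by it. The sign of the miR-26a-5p ratio in 3′F depended on the scaling, with 0.06 under edgeR's TMM scaling and DESeq2's size factors, and on the WT culture, being 0.07 relative to WT A and -0.09 relative to WT B. The sign of the miR-26b-5p ratio in KO likewise turned to -0.07 against WT B alone.

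**Figure D3:**
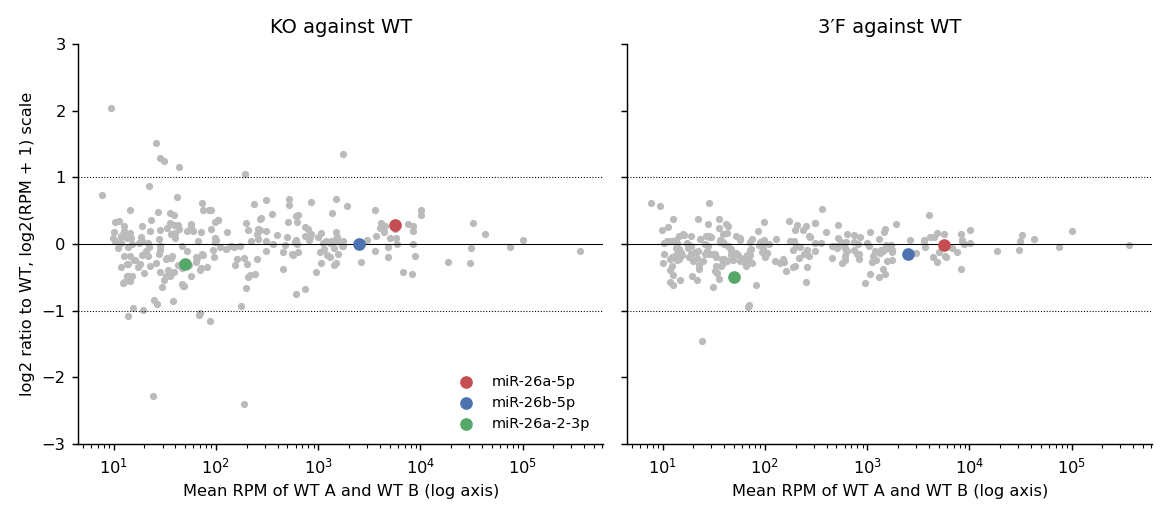
The log2 ratio to WT of the 251 expressed miRNAs in KO (left) and 3′F (right) against their mean RPM in WT A and WT B on a log axis. Grey points are miRNAs, colored points are miR-26a-5p, miR-26b-5p and miR-26a-2-3p, and dotted lines mark 2-fold. In each panel 1 miRNA, miR-146a-5p, lies below the plotted range, and the miR-26 family lies within the dotted lines in both panels.

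The other strand of each hairpin, which is mostly discarded when the duplex is loaded into Argonaute, can be assigned to its hairpin because the 3p strands differ. They are shown with bases 2 to 8 in capitals.
mmu-miR-26a-1-3p: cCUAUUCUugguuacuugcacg
mmu-miR-26a-2-3p: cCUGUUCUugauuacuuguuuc
mmu-miR-26b-3p: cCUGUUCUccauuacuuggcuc
The 3p strands of the miR-26a hairpins differ at 6 of 22 positions, with A4G in the seed of miR-26a-2-3p relative to miR-26a-1-3p. miR-26a-2-3p and miR-26b-3p share their bases 2 to 8.

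Counts of miR-26a-2-3p were 842 (WT A), 562 (WT B), 762 (KO) and 559 (3′F), or 49.3, 49.2, 39.9 and 34.5 RPM. The lower bound of the WT B interval, 45.3 RPM, and that of WT A, 46.1 RPM, lay above the upper bounds of KO, 42.9 RPM, and 3′F, 37.5 RPM. The 3p strand of Mir26a-2 was thus lower than in both WT libraries in both mutant libraries, with log2 ratios of -0.30 in KO and -0.50 in 3′F. It was not called at 2-fold, and edgeR's adjusted p was 0.583 in KO and 0.902 in 3′F. WT A and WT B differed by at least 0.30 for 63 and by at least 0.50 for 15 of the 251 miRNAs. By rise it stood at rank 197 of 251 in KO and at rank 238 in 3′F.

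miR-26a-1-3p was near the limit of detection, with 13 counts (WT A), 11 counts (WT B), 14 counts (KO) and 9 counts (3′F). A floor of 3 counts corresponds to between 0.157 and 0.263 RPM, and miR-26a-1-3p was at 0.56 to 0.96 RPM. The intervals of its levels overlapped in all 4 libraries, so a difference was not detectable at this depth. miR-26a-2-3p was 64.8-fold miR-26a-1-3p in WT A (interval 37.7 to 111), 51.1-fold in WT B, 54.4-fold in KO and 62.1-fold in 3′F. The order of the 3p strands of the miR-26a hairpins was the same in the 4 libraries.

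Counts of miR-26b-3p were 112 (WT A), 76 (WT B), 147 (KO) and 79 (3′F), or 6.56, 6.66, 7.70 and 4.88 RPM. Relative to WT this was a log2 ratio of 0.19 (KO) and -0.37 (3′F). The intervals of KO (6.55 to 9.05 RPM) and of 3′F (3.91 to 6.08 RPM) each overlapped those of WT, and at under 10 RPM it was not among the miRNAs that could be called.

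The ratio of the strands within a library was also compared. Over both miR-26a hairpins there were 214 counts of the 5p strand for each count of a 3p strand in WT A (interval 200.04 to 229), 239 in WT B (interval 219.8 to 259), 340.2 in KO (interval 317 to 365) and 319.9 in 3′F (interval 295 to 347). Both mutant libraries were above both WT libraries, and their intervals did not overlap those of WT. Relative to WT the log2 ratio of the strands was higher by 0.59 (KO) and 0.50 (3′F), and WT B exceeded WT A by 0.16. For miR-26b the 5p to 3p ratio was 361 for WT A, 394 for WT B, 324 for KO and 462 for 3′F, with overlapping intervals between each mutant and WT. Strand ratios were also taken for all 100 miRNAs, the family included, with an expressed main strand and at least 100 counts of the other strand summed over the 4 libraries (0.5 counts were added to each strand). The median log2 change was 0.04 for KO and 0.08 for 3′F, and miR-26a stood at rank 9 by its rise in KO and at rank 5 in 3′F. miR-26b changed by -0.22 (KO) and 0.29 (3′F), against 0.12 between WT B and WT A, and stood at ranks 71 and 18. The WT libraries differed from each other by as much as miR-26a did from WT in KO, or more, for 11 of these 100, and in 3′F for 16.

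The miRNAs whose pattern over the 4 libraries was closest to that of each member were found among the expressed miRNAs by the root mean square (RMS) difference of log2(RPM + 1), each miRNA centered on its own mean. For miR-26a-5p these were miR-378a-5p (RMS difference 0.03), miR-181a-5p (0.03) and miR-30c-5p (0.05). All 3 shared the highest value in KO. miR-30c-5p, for example, was at 1395 RPM for WT A, 1604 for WT B, 1688 for KO and 1417 for 3′F. For miR-26b-5p they were miR-29a-3p (0.03), let-7f-1-3p (0.03) and miR-3057-5p (0.04). All 3 shared the lowest value in 3′F, and miR-29a-3p was at 1288, 1381, 1379 and 1221 RPM in the same order of libraries. With 4 libraries these distances are a description of the patterns only.

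A list of 23 other miRNAs, drawn up as residing in introns of protein-coding genes, was set beside the family. Of these, 21 were expressed, and for 17 of the 21 the annotation placed a hairpin in an intron of a protein-coding gene on the same strand. None of the 21 was called in either mutant, beside 3.59% (KO) and 0.797% (3′F) of all expressed miRNAs, shares at which a count of 0 among 21 says little. The median log2 ratio of the 21 was 0.05 (KO) and -0.09 (3′F), near the medians of all expressed miRNAs. In KO, 10 of the 21 were higher than both WT libraries and 8 lower than both, and in 3′F 5 and 11. These counts were near the shares of all expressed miRNAs, 37.8% higher and 39.4% lower in KO and 22.7% and 44.2% in 3′F. The highest ratio in KO was that of miR-139-5p of Pde2a, 1.05, with 201 RPM (WT A), 181 RPM (WT B), 395 RPM (KO) and 198 RPM (3′F). The lowest was that of miR-342-3p of Evl, -0.67, with 749 RPM (WT A), 732 RPM (WT B), 464 RPM (KO) and 754 RPM (3′F). In 3′F the highest was that of miR-27b-3p, 0.19, and the lowest that of miR-30e-5p of Nfyc, -0.45. A ratio at least as high as that of miR-26a-5p was found for 2 of the 21 in KO and 6 in 3′F, and one at least as high as that of miR-26b-5p for 12 of the 21 in each mutant.

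**Figure D4:**
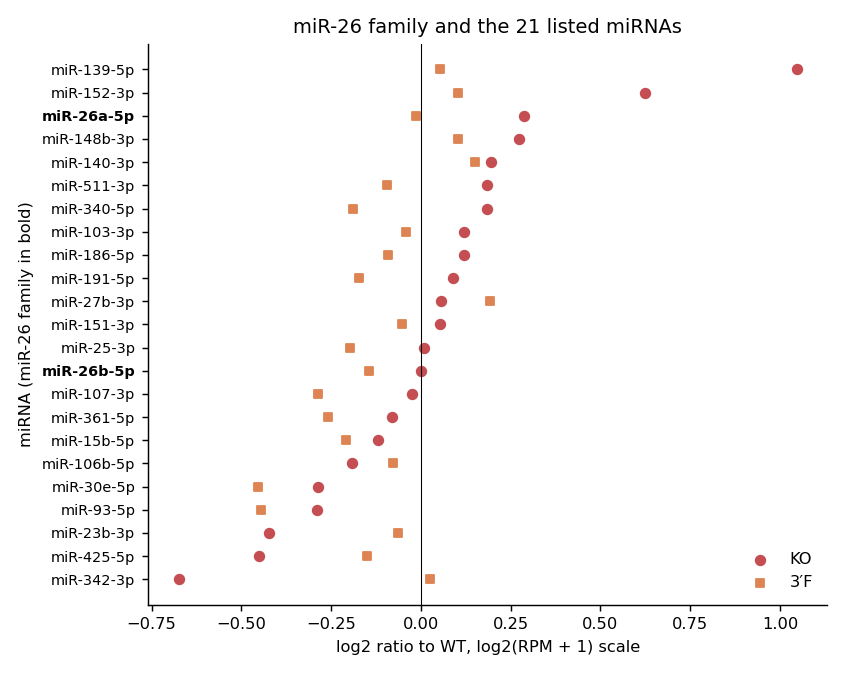
The log2 ratio to WT, on the log2(RPM + 1) scale, of the miR-26 family (bold) and of the 21 expressed miRNAs of the list, 17 of them intronic in the annotation, ordered by the ratio in KO. Circles are KO and squares are 3′F, each a single library. miR-26a-5p lies below miR-139-5p and miR-152-3p in KO, and miR-26b-5p lies near the middle of the list in both mutants.

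Set directly against each other, KO exceeded 3′F by 0.30 on the log2 scale for miR-26a-5p, 0.15 for miR-26b-5p and 0.20 for miR-26a-2-3p. These differences are between single libraries and were not tested.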

How the data were processed

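The authors deposited estimated counts for 2129 lines (1979 mature miRNAs), in which reads that fit several lines were shared out as fractions, and deposited RPM, which scale each library's counts to a total over every line of 1e+06. Adapters were trimmed with cutadapt 1.8.3 per the submitters' processing notes. The aligner, counter, build and miRNA release are not given in the sources used here. All sample columns were used.

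Ratios are differences of log2(RPM + 1) from the mean of the WT libraries, which understates the change of low miRNAs. The expression minimum was a mean of 10 RPM. For edgeR 4.0.16 (R 4.3.3), counts were rounded, and the table of 251 miRNAs was fitted with groups WT, KO and 3′F. Wilson intervals (95%) cover counting error only, and reads are not independent molecules. The paper gives A and B as identifiers of biological replicates of BMDM culture, but nothing states that the cultures came from separate mice. Functions were tested on simulated data with changes larger than those of the members. That test says nothing of finding shifts as small as theirs. Alternatives were 3 other scalings (with DESeq2 1.42.0 for one), a pseudocount of 0.1, dropping WT A or WT B, summed lines, minimums of 1 and 100 RPM, thresholds of 1.5-fold and 3-fold, and the edgeR fit. The miRNAs named are both members, the other strands of their hairpins, the list of introns, with its largest rise and fall in each mutant, the 3 nearest patterns, the neighbors in level and miR-146a-5p. The neighbors are given by the summed level and, for miR-26a-5p, also on 1 line. miR-21a-5p, miR-223-3p, miR-142a-3p, miR-152-3p and the strand ratios fall outside that rule and were added after their values were seen. Members, lists and tests were chosen with earlier results of these data known.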

Additional observations from a re-analysis of the deposited data

Results flagged for a closer look

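miR-26b-3p was higher in KO (7.70 RPM, 147 counts) and lower in 3′F (4.88 RPM, 79 counts) than both WT libraries (6.56 and 6.66 RPM), so the mutant values lay on opposite sides of WT, with KO above 3′F by 0.57 on the log2 scale. The counting intervals of KO (6.55 to 9.05 RPM) and 3′F (3.91 to 6.08 RPM) each overlapped those of WT A (5.45 to 7.89 RPM) and WT B (5.32 to 8.34 RPM). The difference was not tested, each mutant has 1 library, and both were set against the same WT libraries.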

How the results depend on the processing

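No paired analysis was possible because each mutant has 1 library. Its column shares the letter A with WT A, and nothing in the labels says that A marks a shared set of cultures. Relative to WT A the log2 ratio was 0.37 (KO) and 0.07 (3′F) for miR-26a-5p and 0.08 and -0.07 for miR-26b-5p. With a WT library dropped, 28 ratios stayed within the SD of the WT pair by construction and say nothing of stability. Of the other 84 alternative values, 59 moved by less than that SD, or for counts of calls by at most 1.5 times, among them those of the members, of their sum and of their ratio, which scaling cannot move. The log2 ratio of miR-26a-5p in KO ran from 0.21 to 0.37 and that of miR-26b-5p in 3′F from -0.22 to -0.07, both without a change of sign. The family sum was 0.21 in KO on 1 line and 0.24 on summed lines. In 3′F it was -0.05, with 0.03 under TMM, 0.02 under DESeq2's size factors and 0.03 without WT B. The ratio of miR-26a-5p to miR-26b-5p lay 0.28 to 0.29 above WT in KO and 0.13 to 0.14 in 3′F. miR-26a-2-3p kept its sign, from -0.30 to -0.25 in KO and from -0.51 to -0.43 in 3′F. In KO 9 miRNAs were called, against 17 when the minimum was 1 RPM, 3 when it was 100 RPM, 27 at 1.5-fold, 4 at 3-fold and 30 by edgeR, and 15 without WT A or 13 without WT B. For 3′F the 2 calls became 1 when the minimum was 100 RPM, 6 at 1.5-fold and 1 at 3-fold, and stood at 2 without WT A and 5 without WT B. Fewer or more miRNAs were tested under other minimums. A call needs the fold against each WT library used, so dropping a WT library can only keep or add calls. A lower fold threshold can likewise only keep or add calls, and a higher one only keep or remove them. For the edgeR fit the cause of the change was not tested. The few counts of miR-26a-1-3p and miR-26b-3p limit what can be said of these strands.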
